A study of Mus musculus with 15 samples.

Results

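The 42 genes described here encode 2-oxoglutarate-dependent dioxygenases, a family with members that the oncometabolite 2-hydroxyglutarate (2HG) can inhibit. They were chosen by name as JmjC-domain proteins, prolyl, lysyl and asparaginyl hydroxylases and AlkB-family enzymes. The choice went by family and not by measured level, but earlier results of these data were known when it was made. The genes were found by matching gene symbols to the Ensembl IDs of the count table. All 42 were among its 45232 gene IDs, and all 42 were among the 17834 genes with enough counts to be tested. By role they comprised 16 JmjC histone demethylases, 4 further JmjC proteins, 4 hydroxylases of the hypoxia-inducible factor (HIF) pathway, 7 hydroxylases of the endoplasmic reticulum (ER), 8 AlkB-family genes and 3 others.

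Dioxygenases of this family use iron, oxygen and 2-oxoglutarate to oxidize their substrates. Many JmjC enzymes remove methyl groups from histone lysines, and the Egln enzymes mark HIF-alpha proteins for degradation. The ER enzymes modify collagens and other secreted proteins, and many AlkB enzymes repair or demethylate nucleic acids. Mutant IDH2 makes 2HG from 2-oxoglutarate, and 2HG can compete with 2-oxoglutarate in the active site of enzymes of this family. Whether the study's mutation changed the activity of these members was not tested, and the RNA levels given here do not measure it.

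CD45.2+ LSK cells, lineage-negative Sca-1+ Kit+ marrow cells among which are the blood stem cells, were sorted from C57BL/6 mice and sequenced in 15 libraries, 3 in each of 5 groups. The vehicle, AG221, ruxolitinib and combined groups were recipients of cells that carried both Jak2 V617F and Idh2 R140Q, so that these 4 groups shared both alleles, and the WT group carried neither. The Cre that switched on the alleles was driven by the Mx1 promoter and induced with polyI:polyC, and the hosts were lethally irradiated CD45.1 mice that also received WT CD45.1 marrow. AG221, an inhibitor of mutant IDH2, was labelled as given at 40 mg/kg and ruxolitinib, a JAK1 and JAK2 inhibitor, at 60 mg/kg, both by gavage 2 times a day for 21 to 28 days with the last dose about 1.5 h before sacrifice. Whether the WT mice were transplanted, induced or gavaged is not stated, so comparisons with WT may also carry such differences, which was not tested. The ages and sexes of the mice behind each library are not given in the labels, and neither is whether a library held 1 mouse or a pool, so the p-values measure the spread between these libraries, which may in part be technical.

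Libraries held between 18836625 and 32174287 counts, so that 3 counts corresponded to 0.0957 to 0.157 CPM, the count scaled to a common library size. The 11 LSK markers summed to 4291 to 4681 CPM in WT, above all other libraries. They summed to 2444 to 3812 CPM in vehicle, 2567 to 2995 CPM in AG221, 2923 to 3448 CPM in ruxolitinib and 2836 to 3667 CPM in combined. All 11 had counts in every group, with Kit at 740 to 1552 CPM and Ly6a, which encodes Sca-1, at 13.1 to 165.8 CPM. Summed markers of several other cell types also differed between the groups. In vehicle against WT, every neutrophil and erythroid marker had a positive log2 fold change and every B-lineage marker a negative one. Other lists were mixed, with 6 megakaryocyte markers up and 2 down and 7 mast cell and basophil markers up and 1 down. The T and NK cell list had 1 marker up and 6 down, and the stromal list 3 up and 5 down. The mast cell and basophil markers summed to 582 to 1005 CPM in vehicle, 523 to 696 CPM in AG221 and 290 to 349 CPM in ruxolitinib. Their sums were 261 to 438 CPM in combined and 75.3 to 155 CPM in WT. The T and NK cell sum was higher in vehicle, at 412 to 458 CPM, than in WT, at 161 to 226 CPM, although most of its markers were down. The 9 neutrophil markers summed to 7298 to 12080 CPM in vehicle, 15990 to 18780 CPM in AG221 and 11490 to 18340 CPM in ruxolitinib. They summed to 3969 to 7035 CPM in combined and 3271 to 3634 CPM in WT. The 11 erythroid markers summed to 1018 to 1809 CPM in vehicle, 1602 to 2216 CPM in AG221 and 1178 to 4176 CPM in ruxolitinib. They summed to 748 to 1786 CPM in combined and 380 to 512 CPM in WT. The 10 B-lineage and plasma cell markers summed to 523 to 1105 CPM in WT and to 51.2 to 114 CPM in all other libraries, and the 15 immediate early genes to 4155 to 15090 CPM in vehicle, AG221 and ruxolitinib and to 753 to 1328 CPM in combined and WT. No marker of the neutrophil, erythroid or B-lineage lists was at 0 throughout a group, and the WT libraries held 29782 to 34487 genes with a count against 21369 to 26329 in the others. In addition, the names of the vehicle, AG221 and ruxolitinib libraries begin with the letter A and those of the combined and WT libraries with B, and what the letter stands for is not given, so that it cannot be told apart from the group in vehicle, AG221 or ruxolitinib against WT, in combined against any other mutant group and in the departure from additivity. AG221 or ruxolitinib against vehicle and combined against WT each lie within 1 letter. All comparisons with WT also compare libraries that differ in X- and Y-linked RNA, as given below. The part of these differences in the results was not tested, and fewer cells of a type cannot be told apart from less RNA per cell.

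In WT, the level scaled to exon length and library size (FPKM) spanned from 0.11 for P4ha2, a subunit of collagen prolyl 4-hydroxylase, to 24.1 for Phyh, the peroxisomal phytanoyl-CoA hydroxylase. Next to Phyh stood the HIF prolyl hydroxylase Egln2 at 21.5, the H3K27 demethylase Kdm6a at 17.8 and the H3K4 demethylase Kdm5c at 16.96 FPKM. The lowest members after P4ha2 were Kdm6b at 1.07 and P3h1 at 1.54 FPKM. P4ha2 was at 0.16 to 1.71 CPM over the 15 libraries, from about the value of 3 counts upwards, and no difference between its groups could be read at this depth.

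With edgeR's quasi-likelihood test and Benjamini-Hochberg adjustment over all tested genes, 11 of the 42 members differed between vehicle and WT, 6 higher and 5 lower, against 33.3% of all genes tested (15.4% higher and 17.9% lower). Combined treatment differed from vehicle in 9 members, 4 higher and 5 lower, with 12.5% of all genes called (8.28% higher and 4.21% lower). AG221 differed from vehicle in 1 member, which was lower (background 0.987%, 0.471% higher and 0.516% lower) and ruxolitinib in 0 members (background 0.0168%, 3 genes), with 1 member at an unadjusted p under 0.05, and DESeq2 called 0 members too. Combined treatment differed from WT in 1 member, which was lower (background 3.25%, 1.63% higher and 1.61% lower). The share of members called between vehicle and WT was thus 26.2%, below the background, and that between combined and vehicle was 21.4%, above it. The median log2 fold change of the members was 0.08 between vehicle and WT and -0.13 between combined and vehicle, beside -0.09 and 0.04 over all genes tested. Vehicle against WT and combined against vehicle share the 3 vehicle libraries, so an opposite sign in both is in part built in.

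Counted by libraries that do not overlap, 14 members were above WT in every vehicle library and 6 below, beside 25.6% and 31.3% of all genes. Combined libraries were all above vehicle in 10 members and all below in 11, beside 19.5% and 15.2%. For AG221 against vehicle these counts were 2 and 3 (12.7% and 7.26%), for ruxolitinib against vehicle 0 and 1 (3.67% and 4.5%) and for combined against WT 5 and 7 (22.3% and 19.3%). As shares of the 42 members, the first of these 10 counts and both counts of combined against vehicle were above the background, and the other 7 were below it.

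**Figure D1:**
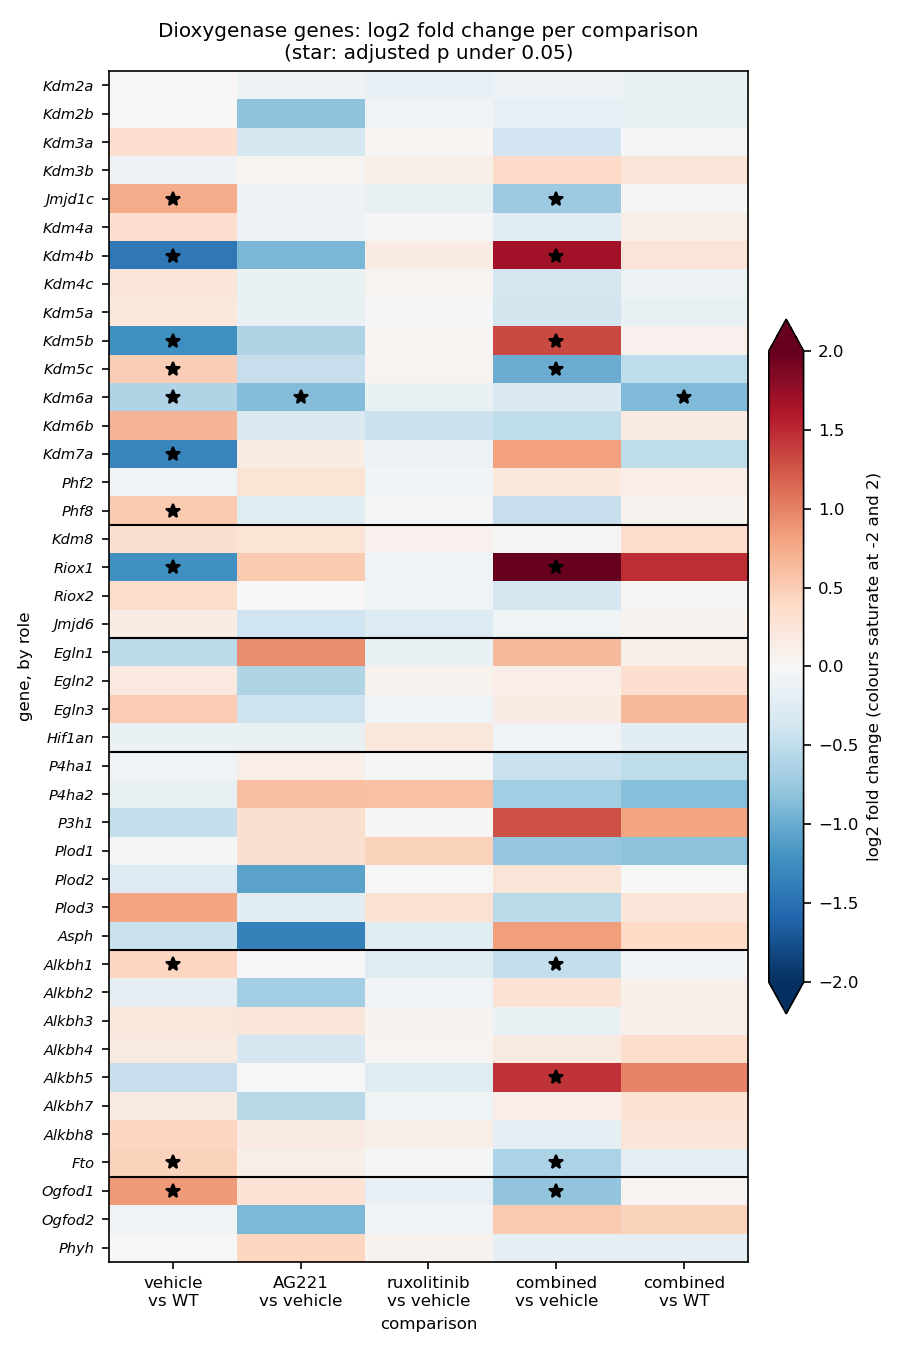
The log2 fold change of each of the 42 dioxygenase genes (rows, by role) in 5 comparisons (columns), in red where higher and blue where lower in the group named first, with colours saturating at -2 and 2 and a star on each adjusted p under 0.05. Stars stand in 11 rows for vehicle against WT and 9 for combined against vehicle, and in 1, 0 and 1 rows for AG221 against vehicle, ruxolitinib against vehicle and combined against WT.

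Among the 16 JmjC histone demethylases, 3 were higher (Jmjd1c, Kdm5c and Phf8) and 4 lower (Kdm4b, Kdm5b, Kdm6a and Kdm7a) in vehicle than in WT. Jmjd1c, a member of the KDM3 family of H3K9 demethylases, was at 222, 235 and 182 CPM in vehicle, 138, 128 and 115 CPM in WT and 134, 122 and 128 CPM in combined. All vehicle libraries lay above all WT and combined libraries, and the AG221 (169 to 228 CPM) and ruxolitinib (188 to 196 CPM) libraries lay above the WT ones too. The log2 fold change was 0.75 ± 0.13 (SE) between vehicle and WT (edgeR adjusted p = 0.00337) and -0.73 ± 0.13 between combined and vehicle (edgeR adjusted p = 0.0044). Both calls held when any 1 library was left out.

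Kdm4b, which removes methyl groups from H3K9 and H3K36, was at 9.74, 19.3 and 19.3 CPM in vehicle, 46.5, 55.2 and 28.1 CPM in WT and 61.7, 58.2 and 34.7 CPM in combined. The vehicle group did not overlap WT or combined, while within WT and within combined 1 library lay well below the other two. Its log2 fold change was -1.42 ± 0.44 in vehicle against WT (edgeR adjusted p = 0.027), and it was 1.68 ± 0.44 higher in combined than in vehicle (edgeR adjusted p = 0.025). Leaving out vehicle A1 or A4 or WT B28 or B30 ended the first call and leaving out vehicle A1 or A3 or combined B24 or B25 the second, with the log2 fold change between -1.64 and -1.14 and between 1.41 and 1.89.

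Kdm5b, an H3K4 demethylase, moved alike at a higher level, with 45.2, 63.5 and 62.9 CPM in vehicle, 133, 170 and 101 CPM in WT and 169.7, 148 and 110.2 CPM in combined. Every vehicle library was below every WT and combined library, and the AG221 libraries (31.8 to 48.1 CPM) reached lower values still. The log2 fold change was -1.23 ± 0.29 between vehicle and WT (edgeR adjusted p = 0.0095) and 1.32 ± 0.29 between combined and vehicle (edgeR adjusted p = 0.0097). The first call was lost without WT B30, at -1.03, and the second without vehicle A1, at 1.17.

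Kdm7a, which acts on H3K9 and H3K27, was at 10.8, 18.6 and 14.6 CPM in vehicle and 34.6, 48.2 and 27.8 CPM in WT, a log2 fold change of -1.33 ± 0.29 (edgeR adjusted p = 0.0076) that held when any 1 library was left out. In combined it was at 33.2, 21.4 and 23.0 CPM, above all vehicle libraries, but the difference of 0.82 ± 0.29 was not called (edgeR adjusted p = 0.087). Phf8, an X-linked demethylase of H3K9 and H4K20, was at 104.9, 103 and 95.0 CPM in vehicle and 81.2, 64.7 and 63.9 CPM in WT, a log2 fold change of 0.53 ± 0.15 (edgeR adjusted p = 0.0172) that was lost without WT B30, at 0.48. Its combined libraries, at 70.2, 74.3 and 75.9 CPM, were below all vehicle libraries and missed the threshold (-0.46 ± 0.15, edgeR adjusted p = 0.056).

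Kdm5c and Kdm6a lie on the X chromosome and have Y-linked paralogs, Kdm5d and Uty. Kdm6a was at 92.2, 112 and 91.8 CPM in vehicle, 43.6, 71.2 and 47.2 CPM in AG221, 89.5 to 91.9 CPM in ruxolitinib, 92.5, 74.0 and 75.9 CPM in combined and 165, 142 and 141 CPM in WT. The WT libraries were above all others, and the AG221 libraries below all vehicle libraries. Kdm5c was at 186, 150.2 and 170.4 CPM in vehicle, 115, 128 and 127 CPM in AG221, 161 to 191 CPM in ruxolitinib, 78.6, 79.0 and 95.6 CPM in combined and 137, 100.5 and 124 CPM in WT. Vehicle was highest with ruxolitinib, and combined was below all other groups.

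For Kdm6a the log2 fold change was -0.60 ± 0.18 between vehicle and WT (edgeR adjusted p = 0.0216), -0.87 ± 0.18 between AG221 and vehicle (edgeR adjusted p = 0.046) and -0.89 ± 0.18 between combined and WT (edgeR adjusted p = 0.020). It was thereby the 1 member called in each of the last 2 comparisons. Each of these calls was lost without any of 4 or 5 single libraries, which were vehicle A1 and A4 and WT B28 and B30 in the first, vehicle A1, A3 and A4 and AG221 A8 and A10 in the second, and combined B25 and B26 and WT B28 and B30 in the third, with the log2 fold change from -0.68 to -0.51, -1.13 to -0.71 and -0.98 to -0.80. For Kdm5c the log2 fold change was 0.49 ± 0.14 between vehicle and WT (edgeR adjusted p = 0.0211), a call lost without vehicle A1 or A4 or WT B30 (0.37 to 0.60 over single libraries left out). Between combined and vehicle it was -1.0 ± 0.14 (edgeR adjusted p = 0.00155), the smallest adjusted p of any member in that comparison, and this call held when any 1 library was left out.

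The WT libraries differed from all others in sex-linked RNA. Uty was at 64.3 to 108 CPM and Kdm5d at 41.8 to 65.1 CPM in the 12 libraries of mutant cells, while in WT both had at most 2 counts a library. Xist, the RNA of the inactive X chromosome, was at 511, 455 and 477 CPM in WT and at 0.37 to 19.5 CPM in the others. This is the pattern of female cells in WT and of male cells in the others, while the labels give no sex. Every comparison with WT, for these and all other genes, therefore also compares libraries that differ in X- and Y-linked RNA. The group and this difference cannot be told apart.

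When the counts of Kdm6a and Uty were added, an alternative chosen after the data were seen, the sum was 0.38 ± 0.11 higher in vehicle than in WT (edgeR adjusted p = 0.0243), the opposite sign of Kdm6a alone. The sum differed by 0.03 ± 0.11 between combined and WT, and by -0.44 ± 0.11 between AG221 and vehicle (edgeR adjusted p = 0.0625), where the call was lost. The sum of Kdm5c and Kdm5d was 0.90 ± 0.13 higher in vehicle than in WT (edgeR adjusted p = 0.00095) and -0.75 ± 0.13 in combined against vehicle (edgeR adjusted p = 0.0035), so both calls stood. Between combined and WT that sum differed by 0.16 ± 0.13 on the log2 scale where Kdm5c alone differed by -0.51 ± 0.14, neither of them called.

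**Figure D2:**
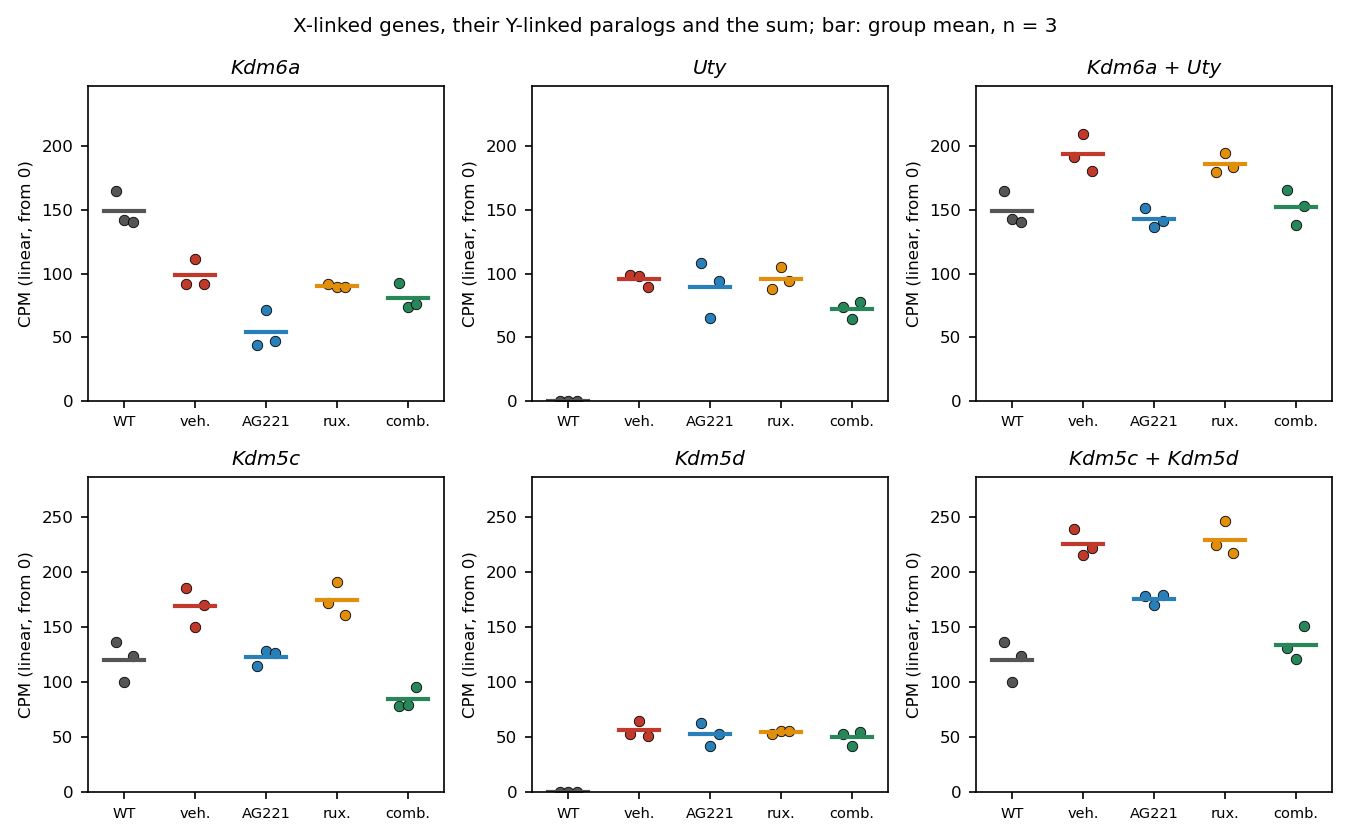
CPM in each library (points, 3 per group, bar at the mean) for Kdm6a, Uty and their sum in the upper row and Kdm5c, Kdm5d and their sum in the lower row. Uty and Kdm5d are at the axis in WT, where Kdm6a is at 141 to 165 CPM, and the summed Kdm6a and Uty level is higher in vehicle than in WT.

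The other 9 histone demethylases (Kdm2a, Kdm2b, Kdm3a, Kdm3b, Kdm4a, Kdm4c, Kdm5a, Kdm6b and Phf2) were not called in vehicle against WT, AG221 against vehicle, ruxolitinib against vehicle, combined against vehicle or combined against WT. The H3K9 demethylase Kdm3a was at 133 to 164 CPM in vehicle, above WT at 107 to 129.8 CPM and combined at 109.7 to 126 CPM, with log2 fold changes of 0.33 ± 0.14 and -0.38 ± 0.14 that were not called. Kdm2a, an H3K36 demethylase, stayed between 80.9 and 116 CPM in all 15 libraries, and its 95% interval ran from -0.30 to 0.29 between vehicle and WT on the log2 scale. Histone lysine methyltransferases write the marks that these enzymes remove. Of 20 of them, 2 were higher and 4 lower in vehicle than in WT, beside 15.4% and 17.9% of all genes tested. In combined 6 were higher and 1 lower than in vehicle, beside 8.28% and 4.21%. Ash1l, which methylates H3K36, differed by -0.45 ± 0.10 and the H3K9 methyltransferase Setdb1 by 0.66 ± 0.17 between vehicle and WT, while between combined and vehicle the H3K36 methyltransferase Nsd2 differed by 0.69 ± 0.13 and the H3K9 methyltransferase Suv39h2 by 1.97 ± 0.38 on the log2 scale. The median of this list was -0.31 in the first and 0.50 in the second comparison, beside -0.09 and 0.04 over all genes.

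Of the 4 further JmjC proteins, Riox1, a ribosomal oxygenase that hydroxylates a histidine of a ribosomal protein, was the member with the largest log2 fold change between combined and vehicle. It was at 1.65, 2.90 and 4.42 CPM in vehicle, 3.16, 5.82 and 3.93 CPM in AG221, 3.20, 1.88 and 3.40 CPM in ruxolitinib, 21.3, 26.7 and 10.5 CPM in combined and 4.61, 10.9 and 5.57 CPM in WT. Combined libraries were above those of all 3 other mutant groups, and vehicle libraries were below WT libraries by a narrow margin. The difference was 2.70 ± 0.47 between combined and vehicle (edgeR adjusted p = 0.0034), which held when any 1 library was left out, and -1.23 ± 0.45 between vehicle and WT (edgeR adjusted p = 0.049), which was lost without vehicle A1 or A3 or WT B30 or B31 (-1.60 to -0.76). Between combined and WT it was 1.47 ± 0.44 (edgeR adjusted p = 0.075), and 1 combined library lay below the highest WT library. Riox1 has 1 exon, of which 31.9% overlaps the exons of Gm26571 on the opposite strand, and whether the counting used strand is not stated. Kdm8, Riox2 and Jmjd6 were not called in any of these 5 comparisons, with log2 fold changes between vehicle and WT of 0.32 ± 0.17, 0.37 ± 0.16 and 0.15 ± 0.19. Exons of Crybg3 on the opposite strand overlap 22.4% of Riox2.

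**Figure D3:**
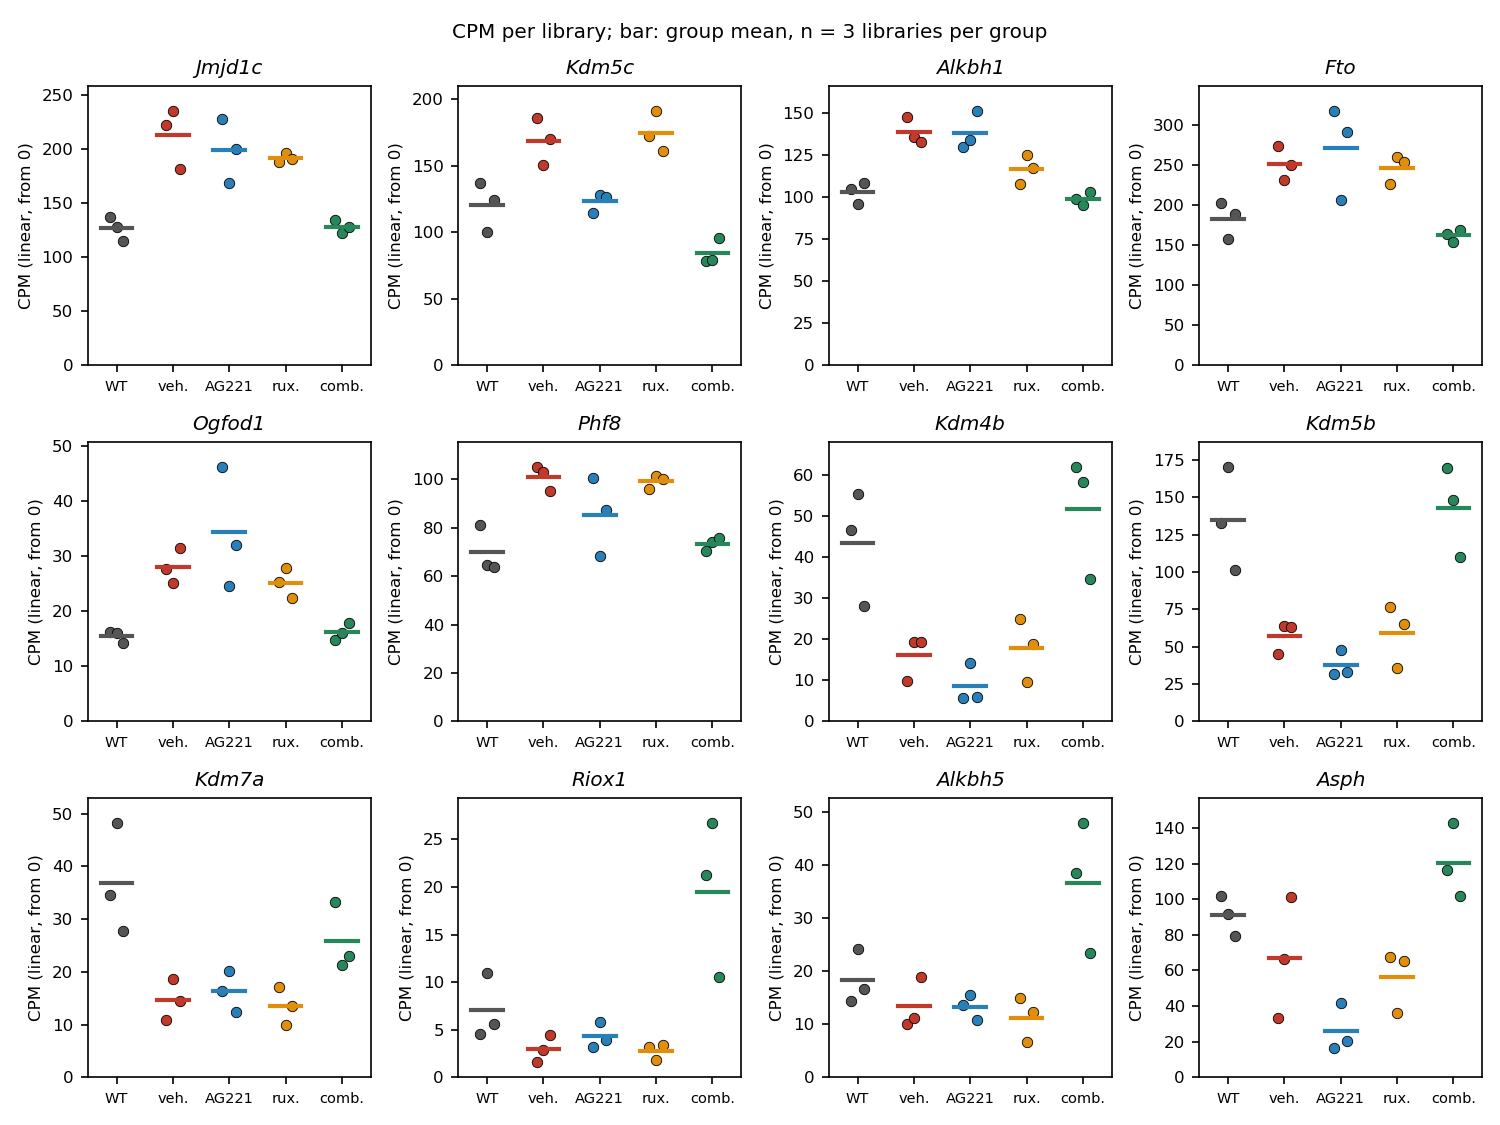
CPM in each library (points, bar at the mean of 3) for 12 members in WT, vehicle, AG221, ruxolitinib (rux.) and combined (comb.), each panel with its own linear axis from 0. Jmjd1c and Kdm5c are higher in vehicle than in WT and combined, Kdm4b and Kdm5b are lower in vehicle than in both, and Riox1 and Alkbh5 are highest in the combined group.

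None of the 4 HIF hydroxylases was called between vehicle and WT, AG221 and vehicle, ruxolitinib and vehicle, combined and vehicle or combined and WT. Egln1, the main HIF prolyl hydroxylase PHD2, was at 7.82, 5.78 and 5.80 CPM in vehicle, 11.8, 15.95 and 9.06 CPM in AG221, 5.98, 4.40 and 7.31 CPM in ruxolitinib, 9.97, 7.43 and 13.0 CPM in combined and 8.16, 10.1 and 9.62 CPM in WT. All AG221 libraries were above all vehicle libraries, and the difference of 0.92 ± 0.27 on the log2 scale missed the threshold (edgeR adjusted p = 0.082). Egln2 (PHD1) was at 67.0, 69.8 and 70.2 CPM in vehicle, 72.4, 66.5 and 78.8 CPM in ruxolitinib, 74.2, 79.3 and 74.7 CPM in combined and 58.0, 53.9 and 68.8 CPM in WT. In AG221 it was at 23.6, 81.8 and 30.8 CPM, with libraries A8 and A10 under all 12 other libraries and A9 above them.

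Egln3 (PHD3) was at 25.8, 28.0 and 33.8 CPM in vehicle, 13.2, 39.97 and 12.9 CPM in AG221, 37.5, 12.9 and 32.0 CPM in ruxolitinib, 30.3, 21.3 and 45.1 CPM in combined and 19.1, 17.9 and 24.98 CPM in WT. Vehicle was above WT in every library by a small margin, with a log2 fold change of 0.50 ± 0.45 and a 95% interval from -0.47 to 1.47. Hif1an, the asparaginyl hydroxylase that blocks HIF coactivator binding, was at 91.9, 76.7 and 75.3 CPM in vehicle, 88.05, 54.6 and 77.0 CPM in AG221, 80.02, 113 and 90.9 CPM in ruxolitinib, 76.9, 79.3 and 75.7 CPM in combined and 93.3, 86.3 and 89.2 CPM in WT. Its log2 difference was -0.14 ± 0.17 between vehicle and WT, with a 95% interval from -0.51 to 0.23.

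Of the 32 genes listed for HIF and its targets, 30 were tested. Of these, 10 were higher and 2 lower in vehicle than in WT, beside 15.4% and 17.9% of all genes tested. Between combined and vehicle 2 were higher and 2 lower, beside 8.28% and 4.21%. The median log2 fold change of the list was 0.25 and -0.10 in the 2 comparisons, beside -0.09 and 0.04 over all genes. The glycolytic genes Gpi1, Eno1 and Ldha were higher in vehicle than in WT by 0.76 ± 0.11, 0.78 ± 0.14 and 1.09 ± 0.21 on the log2 scale. Bhlhe40, a transcriptional repressor, was 2.33 ± 0.49 higher in vehicle than in WT and differed by -2.43 ± 0.49 between combined and vehicle. The other 3 called in the latter comparison, named after their values were seen, were Mxi1 (1.50 ± 0.30), Pdk1 (1.43 ± 0.38) and Hk2 (-0.74 ± 0.18).

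The 7 ER hydroxylases, which modify prolines, lysines and aspartates of secreted proteins, were not called in vehicle against WT, any treatment against vehicle or combined against WT. Asph, an aspartyl and asparaginyl beta-hydroxylase, had the widest range among them, with 33.5, 66.7 and 101 CPM in vehicle, 16.6, 41.6 and 20.3 CPM in AG221, 67.8, 36.3 and 65.1 CPM in ruxolitinib, 116, 142 and 102 CPM in combined and 102, 91.9 and 79.6 CPM in WT. The vehicle libraries overlapped both AG221 and WT, and the combined libraries were above all vehicle libraries. Plod3, a lysyl hydroxylase, was at 57.9, 70.45 and 82.6 CPM in vehicle against 43.2, 37.6 and 41.6 CPM in WT, a log2 fold change of 0.78 ± 0.32 that missed the threshold (edgeR adjusted p = 0.071). P3h1, a prolyl 3-hydroxylase, was at 2.37, 5.20 and 5.09 CPM in vehicle and 10.1, 13.5 and 6.85 CPM in combined, a log2 fold change of 1.27 ± 0.41 that also missed it (edgeR adjusted p = 0.062). Exons of other genes on the opposite strand overlap 11.7% of Plod3 and 14.7% of Asph.

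Among 16 collagens and ER partners of collagen, 13 were tested. Of these, 3 were higher and 4 lower in vehicle than in WT, beside 15.4% and 17.9% of all genes tested. In combined 2 were higher and 1 lower than in vehicle, beside 8.28% and 4.21%. Crtap, the partner of P3h1 in the prolyl 3-hydroxylase complex, differed by -2.15 ± 0.51 on the log2 scale between vehicle and WT and by 3.01 ± 0.52 between combined and vehicle. The collagen galactosyltransferase Colgalt1 differed by -1.25 ± 0.32 and 2.17 ± 0.33, and the collagen gene Col18a1 by 2.77 ± 0.52 and -1.67 ± 0.50.

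Of the 8 AlkB-family genes, 2 were higher in vehicle than in WT (Alkbh1 and Fto), while in combined against vehicle Alkbh5 was higher and the same 2 genes lower. Fto, a demethylase of N6-methyladenosine (m6A) and of its cap-adjacent form, was at 273, 231 and 250.1 CPM in vehicle, 317, 206 and 291 CPM in AG221, 226, 259.7 and 253 CPM in ruxolitinib, 163, 154 and 168 CPM in combined and 202, 157 and 189 CPM in WT. All libraries of vehicle, AG221 and ruxolitinib were above all WT and combined libraries. On the log2 scale Fto differed by 0.46 ± 0.15 between vehicle and WT (edgeR adjusted p = 0.036) and -0.63 ± 0.15 between combined and vehicle (edgeR adjusted p = 0.0165). The first call was lost without vehicle A1 or A4 or WT B30 or B31 (0.36 to 0.55), and the second without vehicle A1 or combined B24 or B25 (-0.69 to -0.57).

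Alkbh5, the other known m6A demethylase, moved the opposite way between combined and vehicle. It was at 10, 11.2 and 19.0 CPM in vehicle, 13.6, 15.4 and 10.8 CPM in AG221, 14.9, 6.62 and 12.2 CPM in ruxolitinib, 38.6, 47.8 and 23.4 CPM in combined and 14.4, 24.2 and 16.6 CPM in WT. Combined libraries were above all libraries of the other mutant groups, and 1 of them was under the highest WT library. Between combined and vehicle the log2 fold change was 1.45 ± 0.35 (edgeR adjusted p = 0.0168), a call lost without vehicle A1 or A3 or combined B24 or B25 (1.20 to 1.78). Between vehicle and WT it was -0.46 ± 0.35, with overlapping groups and a 95% interval from -1.21 to 0.29.

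Alkbh1, which demethylates transfer RNA and has been assigned DNA substrates, was at 147, 135 and 133 CPM in vehicle, 105, 95.7 and 108 CPM in WT and 98.9, 95.1 and 103 CPM in combined. Vehicle libraries were above all WT and combined libraries, with log2 fold changes of 0.43 ± 0.11 (edgeR adjusted p = 0.0135) and -0.48 ± 0.11 (edgeR adjusted p = 0.0122). The first was lost without WT B30, at 0.38, and the second without vehicle A1 or combined B24 or B25 (-0.52 to -0.44). Alkbh2, Alkbh3, Alkbh4, Alkbh7 and Alkbh8 were not called in these comparisons, with log2 fold changes between -0.18 and 0.43 from WT to vehicle.

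The m6A writers and readers were counted beside Fto and Alkbh5. Of 16 tested out of 17, 1 was higher and 4 lower in vehicle than in WT, beside 15.4% and 17.9% of all genes tested. In combined 4 were higher and 0 lower than in vehicle at the adjusted threshold of edgeR, beside 8.28% and 4.21%. The 4 were the reader Ythdf1 (1.44 ± 0.23 on the log2 scale), the writer subunits Rbm15b (1.25 ± 0.22) and Wtap (1.46 ± 0.39), and the reader Ythdc2 (1.02 ± 0.20). Between vehicle and WT, Ythdc2, Wtap and Rbm15b differed by -0.77 ± 0.20, -1.20 ± 0.38 and -0.60 ± 0.21, and Ythdf1 was not called. The median of the list was 0.09 and 0.08 in the 2 comparisons.

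Ogfod1, a prolyl hydroxylase of the ribosomal protein Rps23, was the called member with the largest positive log2 fold change between vehicle and WT. It was at 27.6, 25.2 and 31.5 CPM in vehicle, 46.1, 24.7 and 32.1 CPM in AG221, 25.2, 27.9 and 22.4 CPM in ruxolitinib, 14.8, 16 and 17.8 CPM in combined and 16.3, 16.1 and 14.3 CPM in WT. All libraries of vehicle, AG221 and ruxolitinib were above all WT and combined libraries. The log2 fold change was 0.85 ± 0.21 between vehicle and WT (edgeR adjusted p = 0.0107), which held without any 1 library, and -0.79 ± 0.21 between combined and vehicle (edgeR adjusted p = 0.0231), which was lost without vehicle A1 or A4 or combined B24 or B25 (-0.87 to -0.71). Ogfod2 and Phyh were not called in either, and Phyh differed by 0.00 ± 0.15 between vehicle and WT with a 95% interval from -0.32 to 0.32.

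In vehicle against WT, the count of called members fell to 3 without WT B30, 6 without vehicle A1 and 7 without vehicle A4, beside 1901 of 18054, 3493 of 19116 and 3717 of 19125 genes called in the same fits. Offsets for GC content per library gave 20 members called, 17 higher and 3 lower, beside 7773 of 17834 genes. These offsets were not centred within a library, so they also shifted whole libraries. The median of all genes was 0.27 in place of -0.09. The split between higher and lower members depended on this setting, and the shift of whole libraries was not separated from a correction for GC content. In combined against vehicle the count was 3 without vehicle A1 and 4 without combined B24 or B25, beside 1006 of 19116, 1049 of 18988 and 1169 of 19112 genes. With the GC offsets it was 14, 4 higher and 10 lower, beside 2479 of 17834 genes.

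The start sites of the members called in combined against vehicle are shown for the 4 genes whose RefSeq window, from 250 bases before to 50 bases after the gene's start, held at least 1 of 3 motifs named next. Windows were available for 35 members, some with more than 1, and motifs were counted per gene, in any of its windows. The motifs were the hypoxia response core ACGTG, the AP-1 site TGANTCA and the STAT site TTCNNNGAA, each searched on both strands and printed in capitals, with no overlap between them in these windows. All 4 lie on the plus strand of GRCm38.p6, Kdm5b at chr1:134559928-134560227, Riox1 at chr12:83950358-83950657, Fto at chr8:91313275-91313574 and Kdm5c at chrX:152232977-152233276.
Kdm5b: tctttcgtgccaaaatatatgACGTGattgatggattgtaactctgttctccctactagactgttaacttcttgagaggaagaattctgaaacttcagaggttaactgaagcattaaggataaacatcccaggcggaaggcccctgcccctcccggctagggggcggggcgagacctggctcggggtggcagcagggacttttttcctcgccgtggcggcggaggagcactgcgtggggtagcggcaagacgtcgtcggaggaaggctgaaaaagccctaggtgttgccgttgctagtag
Riox1: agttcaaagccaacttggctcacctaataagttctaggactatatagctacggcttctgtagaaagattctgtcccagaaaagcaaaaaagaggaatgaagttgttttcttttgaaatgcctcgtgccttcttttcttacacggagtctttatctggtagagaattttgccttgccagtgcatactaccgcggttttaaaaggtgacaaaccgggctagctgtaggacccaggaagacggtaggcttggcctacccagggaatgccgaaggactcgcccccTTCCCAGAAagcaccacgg
Fto: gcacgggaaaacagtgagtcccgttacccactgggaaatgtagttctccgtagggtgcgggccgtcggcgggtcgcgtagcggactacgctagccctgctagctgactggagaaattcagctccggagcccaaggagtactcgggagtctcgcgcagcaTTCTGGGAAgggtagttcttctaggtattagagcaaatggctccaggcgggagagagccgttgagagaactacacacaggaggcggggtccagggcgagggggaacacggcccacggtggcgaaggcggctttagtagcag
Kdm5c: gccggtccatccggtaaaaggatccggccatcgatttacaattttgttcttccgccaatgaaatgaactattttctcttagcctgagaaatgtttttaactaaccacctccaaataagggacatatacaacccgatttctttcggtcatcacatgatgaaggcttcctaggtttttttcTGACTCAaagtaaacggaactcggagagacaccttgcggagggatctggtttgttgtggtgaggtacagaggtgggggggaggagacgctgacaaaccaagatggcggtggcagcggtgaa

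Kdm5b held ACGTG, Riox1 and Fto the STAT site and Kdm5c the AP-1 site. ACGTG was in 17 of the 35 genes (48.6%), against 21.8% of all genes with a window and 28.1% of the 11808 tested genes with one, and the 17 included Egln1, Egln2 and Egln3. The STAT site was in 4 (Fto, Kdm3a, Phf8 and Riox1; 11.4%, against 9.55% of all genes and 8.48% of tested genes) and the AP-1 site in 3 (Kdm3a, Kdm4a and Kdm5c; 8.57%, against 8.97% and 6.59%). The ETS core CCGGAA, also searched, was in 13 of the 35 genes (37.1%, against 16.7% of all genes and 28.6% of tested genes), Alkbh1 and Ogfod1 among them, and in none of the 4 printed. Riox1 rose and Fto fell in combined against vehicle with the same motif in their windows, and a match of letters shows no binding.

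AG221 against vehicle turned on 1 library. In A9 many members stood apart from A8 and A10. Ogfod2 was at 5.599, 25.2 and 8.29 CPM in A8, A9 and A10, Alkbh2, which repairs alkylated DNA, at 1.50, 5.58 and 2.07 CPM, and Kdm4b at 5.69, 14.3 and 5.82 CPM. In each of them A9 was close to the vehicle libraries and A8 and A10 were below them, and Idh2 itself was at 55.1, 335 and 65.9 CPM in A8, A9 and A10. Alkbh2 held 35, 119 and 57 counts in these libraries, and exons of Usp30 on the opposite strand overlap 29.5% of its exons. Without A9, edgeR called 13 members, 1 higher (Phyh) and 12 lower (Kdm2b, Kdm4b, Kdm5c, Kdm6a, Jmjd6, Egln2, Egln3, Plod2, Asph, Alkbh2, Alkbh7 and Ogfod2), beside 4672 of 19125 genes tested. Without A8, A10 or any 1 vehicle library it called 0 members, and with all libraries 9 members had an unadjusted p under 0.05.

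Over the 42 members, the difference between A9 and the mean of A8 and A10 in log2 CPM went with the GC content of the longest transcript (Pearson's r = 0.53, Spearman's rho = 0.52), and over 17751 genes with r = 0.30 and rho = 0.28. The points share 3 libraries and their base composition, so these values describe the libraries and carry no test. Ruxolitinib A16 stood below A14 and A17 in several of the same genes, with Kdm2b at 29.8 against 66.0 and 56.1 CPM, Egln3 at 12.9 against 37.5 and 32.0 CPM and Idh2 at 124 against 480.2 and 425 CPM. A relation with GC content was not particular to A9. Over the members, log2 fold changes of combined against WT had r = 0.45 and rho = 0.54, and those of combined against vehicle 0.31 and 0.29. For vehicle against WT the values were -0.06 and -0.09, and for AG221 against vehicle 0.0 and -0.03. The cause was not tested.

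**Figure D4:**
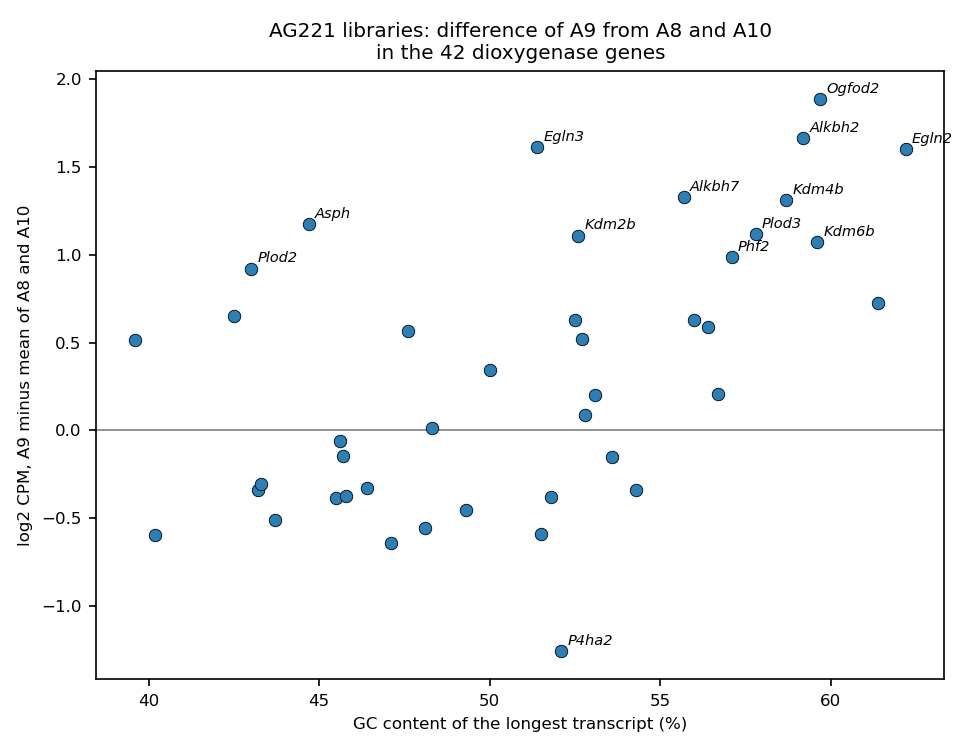
The difference in log2 CPM between AG221 library A9 and the mean of A8 and A10 (vertical axis) against the GC content of the longest transcript in percent (horizontal axis), 1 point per member, named where the difference exceeds 0.9 either way. Ogfod2, Alkbh2 and Egln2 are among the highest points and Pearson's r over the 42 points is 0.53.

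Ruxolitinib alone was the treatment with the smallest differences from vehicle among the members. The smallest unadjusted p was that of Alkbh1, at 107, 125 and 117 CPM against 147, 135 and 133 CPM in vehicle, with a log2 fold change of -0.25 ± 0.11 (edgeR adjusted p = 1) and groups that did not overlap. Next came Kdm6b, an H3K27 demethylase, at 10.8, 5.90 and 9.55 CPM against 13.8, 12.4 and 9.24 CPM in vehicle, with -0.44 ± 0.30 and overlapping groups. The 95% intervals of 34 members lay within 1 on the log2 scale of no difference and those of 17 within 0.5, so for the other 8 a change of 2-fold or more is not excluded by these libraries.

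Between combined and WT, Kdm6a was the called member, as given above, and Kdm5c and Riox1 followed. The intervals of 30 members lay within 1 on the log2 scale of no difference and those of 11 within 0.5, and the widest bounds among all members were -2.37 and 2.43. A fit of the 2 groups alone called 3 members, and leaving out combined B25 or B26 or WT B28 or B30 left 0, with 6 members at an unadjusted p under 0.05 in the fit of all libraries and 3 called by DESeq2.

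Against WT, AG221 differed in 14 members (7 higher and 7 lower, background 50.7%, 22.2% higher and 28.5% lower) and ruxolitinib in 11 (6 higher and 5 lower, background 32.3%, 16.1% higher and 16.2% lower). Combined treatment differed from AG221 in 16 members (9 higher and 7 lower, background 33.2%, 18.9% higher and 14.3% lower) and from ruxolitinib in 7 (4 higher and 3 lower, background 12.4%, 8.5% higher and 3.94% lower). Kdm4b, Kdm5b, Riox1 and Alkbh5 were higher and Jmjd1c, Kdm5c and Fto lower in combined than in each of the other 3 mutant groups, comparisons that share the combined libraries. Without AG221 A9 the counts were 22 for AG221 against WT, beside 10793 of 19125 genes, and 26 for combined against AG221, beside 8140 of 19125 genes. Ruxolitinib against WT fell to 3 without WT B30 and 7 without ruxolitinib A16 or A17, and combined against ruxolitinib to 4 without combined B24 or B25.

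Finally, the change with both drugs was compared with the sum of the 2 single-drug changes on the log2 scale. Kdm4b, Kdm5b, Riox1, Asph and Alkbh5 were higher with both drugs than that sum (5 members, background 8.42%, 5.6% higher and 2.82% lower), and 0 members were lower at the adjusted threshold of edgeR. For Kdm5b, at 31.8, 48.1 and 33.2 CPM in AG221, 76.3, 35.5 and 65.3 CPM in ruxolitinib and 169.7, 148 and 110.2 CPM in combined, the departure was 1.87 ± 0.41 (edgeR adjusted p = 0.033). For Asph it was 2.45 ± 0.56 (edgeR adjusted p = 0.034). The count was 0 without vehicle A3 or A4, AG221 A8 or A10, ruxolitinib A16 or A17, or combined B24 or B25, and 18 without AG221 A9, beside 6087 of 19125 genes.

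Of 25 further genes of the dioxygenase family, 19 were tested. Between vehicle and WT 3 were higher and 3 lower, beside 15.4% and 17.9% of all genes tested. Uty and Kdm5d were among the higher, and the prolyl 3-hydroxylase P3h3 among the lower at -1.61 ± 0.35 on the log2 scale. Between combined and vehicle 1 was higher and 2 lower, beside 8.28% and 4.21%. There P3h3 was higher by 1.54 ± 0.35, and Jarid2, a JmjC protein of the PRC2 complex without demethylase activity, was lower at -0.61 ± 0.14. Tet2, named after its value was seen, was lower at -0.55 ± 0.16. Tet2, a 5-methylcytosine dioxygenase, was at 80.1, 89.8 and 93.5 CPM in vehicle, 58.6, 50.25 and 70.6 CPM in combined and 75.4, 67.1 and 62.4 CPM in WT.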

How the data were processed

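RNA sequencing of LSK cells was analysed from the deposited raw counts per Ensembl gene. Per the labels and methods, the authors amplified RNA with SMARTer, aligned paired-end reads to mm10 with STAR 2.5.1a and counted with its quantMode option. The strand setting and the Ensembl release are not given in the sources used here. The authors also deposited counts divided by DESeq2 1.6.3 size factors, a signal that proved to be the raw counts over 1 factor per library and entered no test.

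GENCODE M21 (GRCm38) gave symbols for 44585 of 45232 IDs. Counts were filtered with filterByExpr, scaled by TMM and tested in 1 quasi-likelihood fit of 15 libraries and 5 groups without covariates (edgeR 4.0.16, R 4.3.3), with Benjamini-Hochberg adjustment over 17834 genes and a threshold of 0.05. The code was tested on simulated data. CPM used the TMM-scaled library sizes and FPKM the merged exon length. Intervals are 95% and come from the same fit, so they include the spread between libraries. The common biological coefficient of variation was 0.313. Depth was 18836625 to 32174287 counts a library.

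The members and lists were chosen with earlier results of these data known. Values per library were given for up to 6 called members per direction with the smallest adjusted p (vehicle against WT, combined against vehicle, AG221 against vehicle), for Egln1, Egln2, Egln3, Hif1an, Fto, Alkbh5 and the X-linked members, and for the 2 members with the smallest p for ruxolitinib against vehicle, combined against WT and the departure from additivity. At most 4 examples a list followed from the smallest adjusted p. Values per library of further members (Asph, Plod3, P3h1, Ogfod2, Alkbh2, Kdm2b) and of Tet2 and Idh2 were added after their values were seen. Alternatives were DESeq2 1.42.0, RLE and upper quartile normalization, GC content offsets per library, other filters, a fit of only the groups compared, leaving out chromosomes X and Y and leaving out each library. The GC content offsets were not centred within a library and so also rescaled whole libraries. Summed counts of X- and Y-linked paralogs were added after the data were seen.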

Additional observations from a re-analysis of the deposited data

Results flagged for a closer look

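Each of 5 members differed between the change with both drugs and the sum of the single-drug changes, tested as an interaction in edgeR's quasi-likelihood fit over all 15 libraries with Benjamini-Hochberg adjustment. The log2 departure from additivity was 2.44 for the H3K9 and H3K36 demethylase Kdm4b (adjusted p = 0.0397 by edgeR). It was 1.87 for the H3K4 demethylase Kdm5b (adjusted p = 0.033 by edgeR). For the ribosomal oxygenase Riox1 it was 2.26 (adjusted p = 0.0474 by edgeR). For the ER hydroxylase Asph it was 2.45 (adjusted p = 0.0342 by edgeR). The m6A demethylase Alkbh5 had a departure of 1.71 (adjusted p = 0.0496 by edgeR). All 5 calls were lost when only the 4 groups of the contrast were fitted, and each was lost without any of vehicle A3 or A4, AG221 A8 or A10, ruxolitinib A16 or A17, or combined B24 or B25, and for Riox1 also without ruxolitinib A14. Groups of 3 libraries are too small for a test of single libraries that stand apart.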

How the results depend on the processing

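No paired analysis was possible because no replicate number is shared by 2 groups. Under all 14 alternatives, Jmjd1c, Kdm7a and Ogfod1 kept their calls in vehicle against WT, and Jmjd1c and Riox1 theirs in combined against vehicle. Kdm5c also kept its call in combined against vehicle under 14 alternatives. For this gene they lack the fit without chromosomes X and Y and include the sum with Kdm5d. Counts of called members moved by over 1.5 times as follows. DESeq2 gave 5 for AG221 against vehicle, 3 for combined against WT, 16 for combined against ruxolitinib and 12 for the departure from additivity. Upper quartile normalization gave 7 for vehicle against WT and for ruxolitinib against WT, 2 for AG221 against vehicle and for combined against WT, and 12 for the departure. GC content offsets gave 20 for vehicle against WT and for ruxolitinib against WT, 24 for AG221 against WT, 14 for combined against vehicle, 12 for combined against ruxolitinib and 3 for combined against WT. No filter beyond 1 count gave 2 for AG221 against vehicle and for combined against WT, and at least 10 counts in every library gave 2 for combined against WT and 9 for the departure. A fit of only the groups compared gave 0 for AG221 against vehicle, 3 for combined against WT and 0 for the departure, and leaving out chromosomes X and Y gave 0 for AG221 against vehicle and for combined against WT, whose called member is on X.

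Over single libraries left out, the counts ran from 3 to 11 for vehicle against WT, 0 to 13 for AG221 against vehicle, 3 to 10 for combined against vehicle, 0 to 1 for combined against WT, 10 to 22 for AG221 against WT, 3 to 8 for ruxolitinib against WT, 11 to 26 for combined against AG221, 4 to 9 for combined against ruxolitinib and 0 to 18 for the departure. These fits hold fewer libraries.

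Signs of the log2 fold change turned for 8 results, of which 2 turned under a pair of settings each. Summing with the Y-linked paralog turned Kdm6a in vehicle against WT to 0.38, Kdm6a in combined against WT to 0.030 and Kdm5c in combined against WT to 0.16. GC offsets, which also shifted whole libraries, turned Hif1an in vehicle against WT to 0.20 and Egln2 and Egln3 in combined against vehicle to -0.62 and -0.048. Egln3 in combined against vehicle was also at -0.19 without combined B26 (up to 0.36 without other single libraries), and Hif1an at 0.021 without vehicle A1 (down to -0.13). Phf8 in combined against WT was at -0.13 with upper quartile normalization and -0.053 with at least 10 counts in every library. Apart from Kdm6a in vehicle against WT and in combined against WT, none of these results was called, and the cause was not tested.

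Depth limited P4ha2, whose lowest libraries were near 3 counts. With 3 libraries a group, the median width of the 95% interval to either side was 0.48 on the log2 scale in combined against vehicle, so smaller differences in many members could not be resolved.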

Other observations

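Genes of 2-oxoglutarate and 2HG metabolism were counted as a list of 20, all tested. Beside enzymes that make or use 2-oxoglutarate, the list holds Sdha, Sdhb, Sdhc, Sdhd and Fh1 of later steps and the carrier gene Slc25a11. The counts below are thus not of 2-oxoglutarate enzymes alone. Between vehicle and WT 13 were higher and 1 lower, beside 15.4% and 17.9% of all genes tested, and the median log2 fold change of the list was 0.55. The mitochondrial aspartate aminotransferase Got2 was higher by 0.75 ± 0.16 (SE) on the log2 scale, and Ogdh and Dlst, which encode subunits of the 2-oxoglutarate dehydrogenase complex, by 0.68 ± 0.16 and 0.78 ± 0.19. The lower gene was Glud1, glutamate dehydrogenase, at -0.92 ± 0.32. Between combined and vehicle 1 gene of the list was higher, Glud1 at 1.78 ± 0.32, and 1 lower, the hydroxyacid-oxoacid transhydrogenase Adhfe1, which was named after its value was seen, at -2.02 ± 0.59. Over all genes tested, 8.28% were higher and 4.21% lower in that comparison. Between AG221 and vehicle 0 genes of the list were called by edgeR, beside 0.987% of all genes, and the list's median was 0.43.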
